A study of Homo sapiens with 8 samples.

Results

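The imprinted cluster between DLK1 and DIO3 on human chromosome 14 was examined through 5 of its genes, DLK1, MEG3, MEG8, RTL1 and DIO3, in H9, an established line of human embryonic stem cells. The members were chosen by name, with their results in these data known. A row of the deposited tables was taken for a member when its gene field, split at commas, held that symbol. Of the 5 members, 4 had a row among the 33575 rows at day 0 and all 5 had a row among the 34690 rows at day 3.5. MEG8 is found only in a row merged with AL132709.5 and SNORD113-4, so its value cannot be separated from theirs. RTL1 has no row in the day 0 table.

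Cells were grown on gels of 400 Pa (soft) or 60 kPa (stiff) in medium conditioned by feeder cells. They were collected either undifferentiated (day 0) or after induction with bFGF, Activin, VEGF and BMP4, named by the series as mesoderm progenitors (day 3.5). Total RNA was sequenced, and the 4 groups, day 0 on 400 Pa, day 0 on 60 kPa, day 3.5 on 400 Pa and day 3.5 on 60 kPa, hold 2 libraries each. The comparison asks whether the level of these genes depended on the stiffness of the gel. All groups come from the same line, and the labels name no genetic change.

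Imprinted genes are expressed mainly from the chromosome of one parent. In this cluster the paternal chromosome expresses the protein-coding genes DLK1, RTL1 and DIO3, and the maternal chromosome expresses long noncoding RNAs, among them MEG3 and MEG8, together with many microRNAs and C/D box small nucleolar RNAs (snoRNAs). A control region between DLK1 and MEG3, methylated on the paternal chromosome, governs this choice in embryonic cells, and MEG3 is known to be silenced in some pluripotent stem cell lines. Parental origin and methylation were not measured here.

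The tables give FPKM, a level scaled to the length of the transcript and to the fragments mapped, as 1 value per group. No spread between libraries stands behind any single FPKM, and the depth is unknown. In the deposited hg19 coordinates the cluster runs over 837.7 kb, from chr14:101192042 to chr14:102029789. The DLK1 row (chr14:101192042-101201632) lies 44.1 kb before the MEG3 row (chr14:101245747-101327368). RTL1 (chr14:101346992-101351184) follows after 19.6 kb, and the merged MEG8 row (chr14:101361107-101426536) after a further 9.92 kb. DIO3 (chr14:102027688-102029789) lies 601 kb beyond the MEG8 row. DLK1, MEG3, MEG8 and DIO3 are on the forward strand and RTL1 on the reverse strand in RefSeq.

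The cluster holds 54 microRNA genes and 47 snoRNA genes between DLK1 and DIO3 in RefSeq (GRCh38.p14). None of these microRNA genes and 2 of these snoRNA genes were matched by symbol to a row, and mature microRNAs were not analysed here. The following mature microRNAs are shown because each lies within a gene whose level is described below, so its precursor may share reads with that gene. miR-770-5p lies in MEG3, miR-370-3p in MEG8 and miR-1247-5p in DIO3OS, the neighbour of DIO3 on the opposite strand. The other 5 lie inside RTL1 but on the opposite strand, where their maternal precursor is complementary to the RTL1 message. Sequences are mature RNAs from RefSeq (GRCh38.p14), 5′ to 3′, with the seed (bases 2 to 8) in capitals.
hsa-miR-770-5p: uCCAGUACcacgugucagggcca
hsa-miR-431-5p: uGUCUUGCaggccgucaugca
hsa-miR-433-3p: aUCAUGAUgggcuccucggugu
hsa-miR-127-3p: uCGGAUCCgucugagcuuggcu
hsa-miR-432-5p: uCUUGGAGuaggucauugggugg
hsa-miR-136-5p: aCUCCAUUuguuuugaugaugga
hsa-miR-370-3p: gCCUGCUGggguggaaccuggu
hsa-miR-1247-5p: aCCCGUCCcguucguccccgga
Of the 94 mature microRNAs of the cluster with a sequence, 21 share 1 of 10 seeds with another, and the largest such group holds 3 (miR-323b-5p, miR-410-5p and miR-494-5p). The 8 printed above have 8 different seeds.

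The 2 snoRNA genes matched to a row, SNORD113-3 and SNORD113-4, lie within the stretch of the MEG8 row, and SNORD113-4 is 1 of the 3 genes merged in it. Their sequences are given as DNA from GENCODE release 29 (GRCh38, forward strand), with the C box and the D box, which bind the proteins of this snoRNA class, in capitals. The letters searched on the RNA strand were TGATGA for the first of these and CTGA for the second.
SNORD113-3: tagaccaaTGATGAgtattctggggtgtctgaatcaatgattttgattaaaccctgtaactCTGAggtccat
SNORD113-4: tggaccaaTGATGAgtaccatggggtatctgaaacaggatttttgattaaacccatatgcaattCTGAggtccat
SNORD113-3 has 72 bases and SNORD113-4 has 75, and both carry the C box from base 9.

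DLK1, a transmembrane and secreted protein of the Notch ligand family without the domain that activates Notch, was the most abundant member on both gels at day 3.5. At day 0 it was at 1.44 FPKM on 400 Pa and 0.561 FPKM on 60 kPa. At day 3.5 it was at 37.6 FPKM on 400 Pa and 106 FPKM on 60 kPa. The stiff gel thus held the lower value at day 0 and the higher value at day 3.5. At day 3.5 DLK1 was 2.81-fold higher on 60 kPa, and the authors' deposited table gives a log2 ratio of 60 kPa over 400 Pa of 1.49 (statistic 3.10, q = 0.00783). Dividing the ratio by the statistic gives an implied standard error (SE) of 0.48. At day 0 the log2 ratio in the authors' deposited table was -1.36 with q = 0.9998 and an implied SE of 1.54, and DLK1 was not called. The difference between the ratios of the days was not tested. In these bulk samples, fewer cells that express a gene and less RNA per cell cannot be told apart.

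A row is called here when the authors' deposited table gives it a q below 0.05 and its FPKM is at least 1 in a group. At day 3.5 the rows nearest to this threshold had q = 0.0490 (called) and q = 0.0521 (not called) in the authors' deposited table. At day 0 only DLK1 reached the FPKM minimum and was tested, and 0 members were called by the authors' comparison, as were 0 with an unadjusted p under 0.05. The authors' deposited table called 0.141% of all tested rows on that day, 0.0619% toward the soft gel and 0.0788% toward the stiff gel. At day 3.5, 4 of the 5 members passed the minimum and were tested, and all 4 were called, 3 higher on 60 kPa and 1 higher on 400 Pa. The authors' deposited table called 1.32% of all tested rows at day 3.5, 0.246% with the higher value on 60 kPa and 1.07% with the higher value on 400 Pa. The members were chosen with these calls known, so nothing is read from their count.

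**Figure D1:**
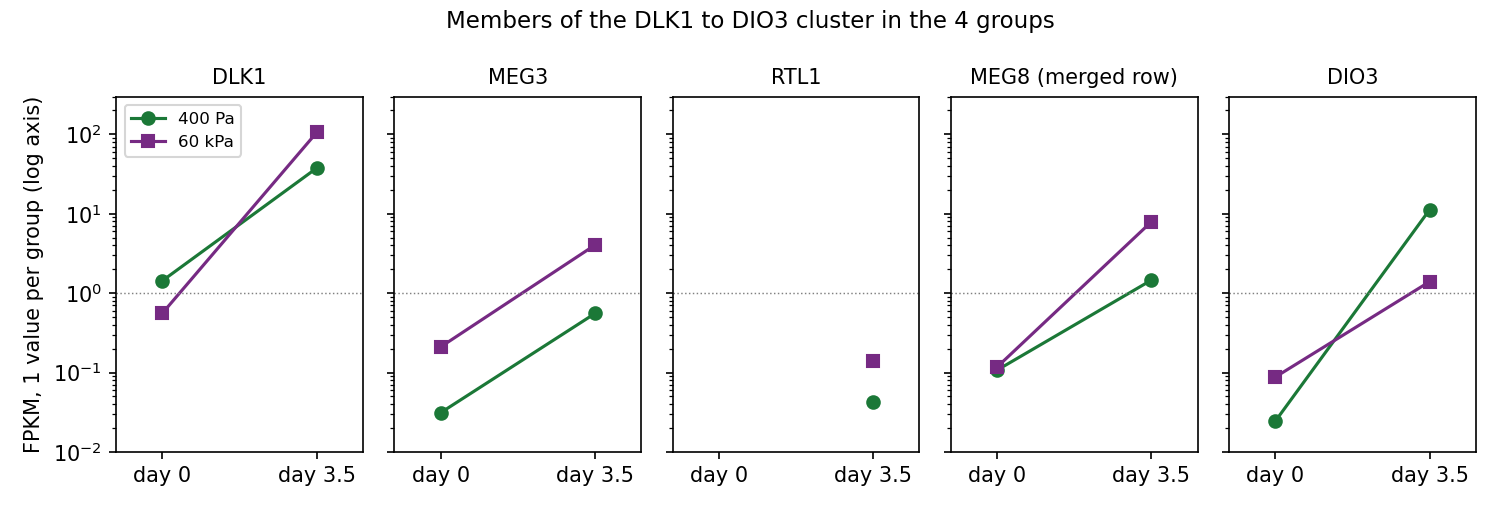
FPKM of each member (log axis; 1 value per group, no error available) at day 0 and day 3.5 on 400 Pa (green circles) and 60 kPa (purple squares), with a dotted line at 1 FPKM; lines join the days of a gel and do not stand for a test. DLK1, MEG3 and the MEG8 row end higher on 60 kPa (106, 4.03 and 7.93 FPKM), DIO3 ends higher on 400 Pa (11.2 FPKM), and RTL1 has no value at day 0.

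RTL1, a protein derived from a retrotransposon that is needed in placenta and muscle, was near the bottom of the scale. At day 3.5 it was at 0.0425 FPKM on 400 Pa and 0.140 FPKM on 60 kPa, and the authors' deposited table did not test it. The strand setting of the counting is not given, so reads of RTL1 and of the microRNA precursor opposite it cannot be told apart.

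MEG3, a maternally expressed long noncoding RNA, was higher on the stiff gel at day 3.5. At day 0 it was at 0.0312 FPKM on 400 Pa and 0.210 FPKM on 60 kPa, below the minimum, and was not tested by the authors. At day 3.5 it was at 0.555 FPKM on 400 Pa and 4.03 FPKM on 60 kPa, a 7.27-fold difference. Only the stiff gel at day 3.5 thus lay above 1 FPKM, so MEG3 passed the minimum through the gel where it was high. The authors' deposited table gives a log2 ratio of 2.86 with q = 0.0189. The statistic beside it is 0.90, which implies an SE of 3.17, larger than the ratio itself. A 2-sided normal test at 0.05 needs a statistic of 1.96. The q and the statistic of MEG3 in the authors' deposited table thus do not come from 1 such test. How the authors' p-values were made is not given. Their smallest p-value on either day was 5e-05. At day 3.5 it goes with q = 0.00783, the lowest q of that day and the value of DLK1 and DIO3. Of the 247 called rows at day 3.5, 36 had a statistic under 1.96 in size in the authors' deposited table.

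The merged row that holds MEG8, the next maternally expressed noncoding RNA along the chromosome, also lay higher on the stiff gel at day 3.5. At day 0 it was at 0.107 FPKM on 400 Pa and 0.117 FPKM on 60 kPa and was not tested by the authors. At day 3.5 it was at 1.46 FPKM on 400 Pa and 7.93 FPKM on 60 kPa. The gels were close at day 0 and differed 5.43-fold at day 3.5. The authors' deposited table gives a log2 ratio of 2.44 with q = 0.0385. The statistic of 1.33, with an implied SE of 1.83, is again below 1.96 in the authors' deposited table. The MEG8 row exceeded the MEG3 row 2.63-fold on 400 Pa and 1.97-fold on 60 kPa at day 3.5 in FPKM, while DLK1 exceeded MEG3 67.9-fold and 26.3-fold.

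DIO3, the selenoenzyme deiodinase 3 that inactivates thyroid hormones, was the member with the opposite direction. At day 0 it was at 0.0244 FPKM on 400 Pa and 0.0878 FPKM on 60 kPa and was not tested by the authors. At day 3.5 it was at 11.2 FPKM on 400 Pa and 1.40 FPKM on 60 kPa, 8.06-fold higher on the soft gel. The authors' deposited table gives a log2 ratio of 60 kPa over 400 Pa of -3.01 (statistic -3.95, q = 0.00783), with an implied SE of 0.76. Both paternally expressed genes with a call, DLK1 and DIO3, thus differed between gels in opposite directions. DLK1 exceeded DIO3 by 3.35-fold in FPKM on 400 Pa and by 75.9-fold on 60 kPa. The order of levels at day 3.5 was DLK1, DIO3, MEG8 row, MEG3 and RTL1 on 400 Pa, and DLK1, MEG8 row, MEG3, DIO3 and RTL1 on 60 kPa. With 1 FPKM per group, neighbours in these orders cannot be set against a spread over libraries.

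Changes between gels were also taken as log2((FPKM + 1) on 400 Pa / (FPKM + 1) on 60 kPa). Values above 0 stand for more RNA on the soft gel, and the added 1 understates the change of low genes. On this scale the day 3.5 changes were -1.47 for DLK1, -1.69 for MEG3, -1.86 for the MEG8 row, -0.13 for RTL1 and 2.35 for DIO3. The median over all tested rows was 0.02. Among the 46 rows called higher on 60 kPa, DLK1 was the fifth highest by FPKM on that gel but the 33rd by size of change. The MEG8 row was the 21st and MEG3 the 25th by size of change among them. DIO3 was the 48th by size of change and the 122nd by FPKM among the 201 rows called higher on 400 Pa.

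**Figure D2:**
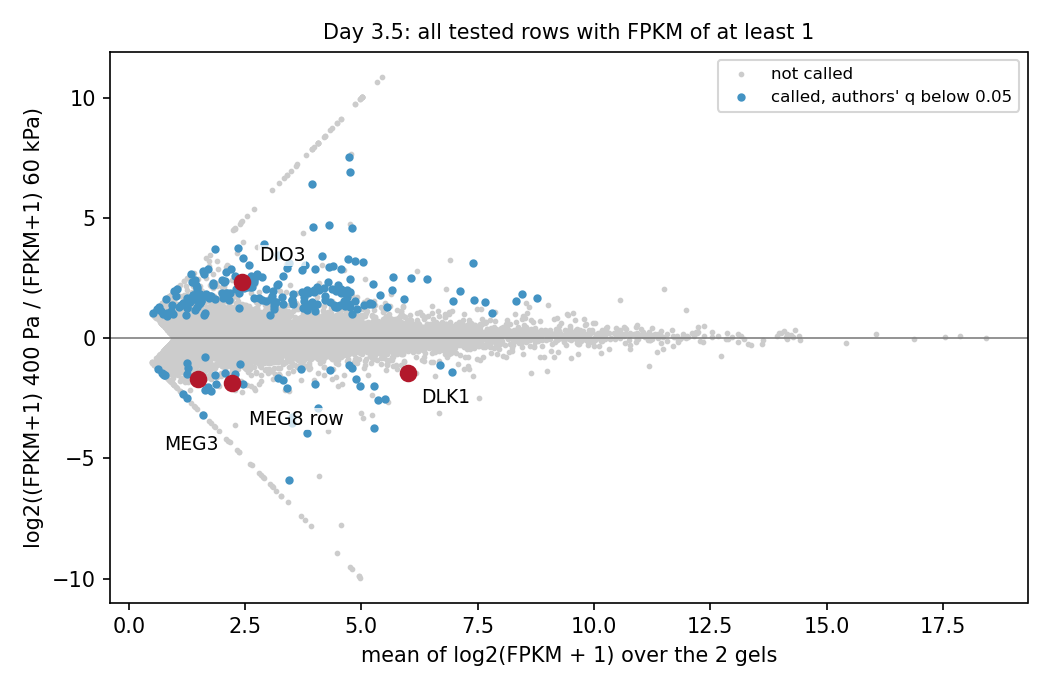
Change between gels at day 3.5 (log2((FPKM+1) on 400 Pa / (FPKM+1) on 60 kPa), y axis) against the mean of log2(FPKM + 1) over both gels (x axis) for every tested row with FPKM of at least 1, grey where not called and blue where called by the authors' q. The 4 called members (red) lie among the other called rows, with DLK1 at -1.47, MEG3 at -1.69, the MEG8 row at -1.86 and DIO3 at 2.35.

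Set side by side, every member with a row on both days had a higher FPKM at day 3.5 than at day 0 on both gels, 8 of 8 pairs of values. These pairs are 4 genes on both gels, chosen with their day 3.5 values known. The share of all rows that rose was not computed, so nothing is read from the count. The tables of the days were made separately, so these differences were not tested. DLK1 at day 3.5 was 26.2 times its day 0 value on 400 Pa and 189 times on 60 kPa. For DIO3 these ratios were 460 on 400 Pa and 15.9 on 60 kPa. MEG3 gave 17.8 and 19.2, and the MEG8 row 13.6 and 67.6. The ratios divide by day 0 values under 1 FPKM in all cases but DLK1 on 400 Pa, so small errors there move them widely. The change was also taken as log2((FPKM + 1) at day 3.5 / (FPKM + 1) at day 0). On 400 Pa and 60 kPa its values were 3.99 and 6.10 for DLK1, 0.59 and 2.06 for MEG3, 1.15 and 2.998 for the MEG8 row, and 3.58 and 1.14 for DIO3. The median over all rows with FPKM of at least 1 on either day of a gel was -0.03 on 400 Pa and 0.01 on 60 kPa.

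The other named rows between DLK1 and DIO3 were then laid out in order along the chromosome. Of 19 such rows, members included, 9 were in the day 0 table and all 19 in the day 3.5 table. At day 0 the highest FPKM among them was the 1.44 of DLK1, and no other row reached 1. At day 3.5, 9 rows reached 1 FPKM in a group. From DLK1 to MEG9, a maternally expressed noncoding RNA past MEG8, 11 of 12 rows had the higher FPKM on 60 kPa. The exception was AL117190.3, at 0.0677 FPKM on 400 Pa and 0.0598 FPKM on 60 kPa. After MEG9, 6 of 7 rows had the higher FPKM on 400 Pa, and the exception was CTD-2561F5.1, at 0.0174 and 0.0607 FPKM. Without the members, the counts were 7 of 8 rows before the boundary and 5 of 6 after it. Of all 18720 tested rows with FPKM of at least 1 at day 3.5, 9710 had the higher value on 400 Pa. That share was not computed for lower rows. AL117190.2 and RP11-123M6.2 share the locus of MEG3, and SNORD113-3 that of the MEG8 row. The rows are thus not independent, and nothing is read from the counts. MEG9 was taken as the boundary after the values had been seen, 10 of the 19 rows stayed under 1 FPKM on both gels, and the directions were not tested.

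**Figure D3:**
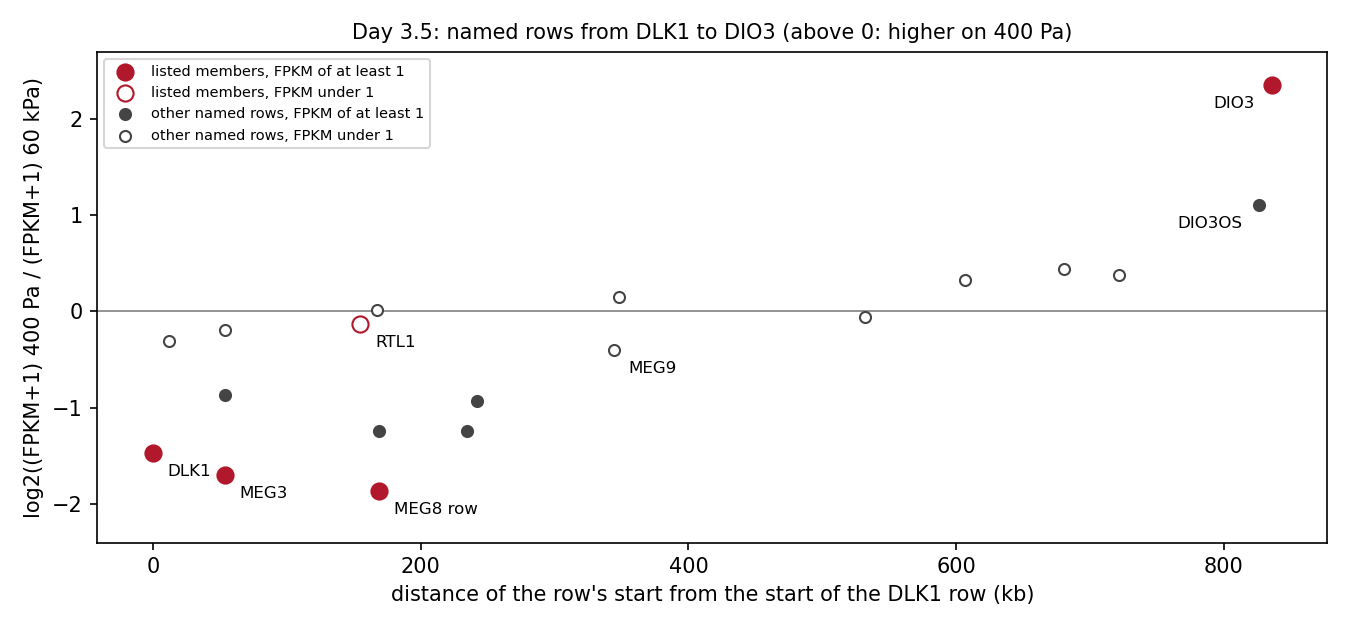
Change between gels at day 3.5 (log2((FPKM+1) on 400 Pa / (FPKM+1) on 60 kPa), y axis) of the 19 named rows by the distance of their start from the start of DLK1 in kb (x axis); red marks the 5 members, and open circles mark rows under 1 FPKM in both groups. The 7 filled points from DLK1 to RP11-909M7.3 lie below 0 and the 2 at the far end, DIO3OS (1.10) and DIO3 (2.35), above 0, but 5 of the 7 reached 1 FPKM only on 60 kPa and DIO3OS only on 400 Pa, which fixes their side.

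Among the rows that are not members, 5 reached 1 FPKM and were tested, and none was called at q below 0.05 in the authors' deposited table, though 3 had an unadjusted p below 0.05 there. SNORD113-3 was at 0.265 FPKM on 400 Pa and 1.98 FPKM on 60 kPa (p = 0.246 in the authors' deposited table). AL132709.8, which begins 309 bases after the MEG8 row, was at 0.211 and 1.87 FPKM (p = 0.0438, q = 0.836 in the authors' deposited table). RP11-909M7.3 starts 611 bases after AL132709.8 and was at 0.198 and 1.27 FPKM (p = 0.0321, q = 0.714 in the authors' deposited table). The MEG8 gene spans 109 kb in RefSeq, against 65.4 kb for the merged row. RP11-123M6.2, which shares its locus with MEG3, was at 0.448 and 1.64 FPKM (p = 0.541 in the authors' deposited table). Each of these 4 rows reached 1 FPKM only on 60 kPa, so the minimum fixed their direction and nothing is read from it.

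DIO3OS, transcribed away from DIO3 on the opposite strand, lies in a row that ends 919 bases before the DIO3 row. It was at 0.0310 FPKM on 400 Pa and 0.0675 FPKM on 60 kPa at day 0, and at 3.16 and 0.938 FPKM at day 3.5. At day 3.5 it reached 1 FPKM only on the soft gel, and the row was not called (p = 0.0161, q = 0.472 in the authors' deposited table).

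Outside the cluster, the nearest named loci on both sides gave 5 tested rows at day 3.5, and the authors' deposited table called none of them. Their lowest unadjusted p was 0.597, so none of them passed 0.05 unadjusted either in the authors' deposited table. WARS, the cytoplasmic tryptophan tRNA synthetase before DLK1, was at 29.1 FPKM on 400 Pa and 35.4 FPKM on 60 kPa. PPP2R5C, a regulatory subunit of protein phosphatase 2A beyond DIO3, was at 112 and 124 FPKM. RP11-796G6.1 was at 204 and 180 FPKM, WDR25 at 8.09 and 6.67 FPKM, and CTD-2017C7.2 at 1.07 and 0.902 FPKM, with the higher value on 400 Pa. RN7SKP92 (1.63 and 1.37 FPKM) and RP11-362L22.1 (1.10 FPKM, and listed at 0 on 60 kPa) reached 1 FPKM at day 0 and had no row at day 3.5. The changes of the 5 tested rows at day 3.5 ran from -0.28 to 0.24.

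The start regions of MEG3 and DIO3 are shown because both genes were near 0 FPKM at day 0 and were called in opposite directions at day 3.5. The sequences are those of RefSeq (GRCh38.p14), from 250 bases before to 50 bases after the gene start, on the forward strand (MEG3, chr14:100825858-100826157; DIO3, chr14:101561245-101561544). Capitals mark matches on either strand to the letters of 3 common promoter motifs. These were the TATA box, searched as TATAAA, the CCAAT box, searched by the letters of its name, and the cAMP response element, searched as TGACGTCA. None of the matches overlap.
MEG3: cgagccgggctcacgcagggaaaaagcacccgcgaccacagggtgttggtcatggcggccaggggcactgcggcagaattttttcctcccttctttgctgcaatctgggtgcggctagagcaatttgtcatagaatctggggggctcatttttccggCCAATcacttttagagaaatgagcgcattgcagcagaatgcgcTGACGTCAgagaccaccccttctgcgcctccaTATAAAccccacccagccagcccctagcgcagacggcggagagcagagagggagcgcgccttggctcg
DIO3: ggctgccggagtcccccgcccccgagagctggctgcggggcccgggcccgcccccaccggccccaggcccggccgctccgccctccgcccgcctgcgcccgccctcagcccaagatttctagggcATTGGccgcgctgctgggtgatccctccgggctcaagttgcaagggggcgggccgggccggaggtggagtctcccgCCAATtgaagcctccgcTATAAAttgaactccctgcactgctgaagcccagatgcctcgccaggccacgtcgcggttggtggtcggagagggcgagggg
The MEG3 region holds a CCAAT box at -93, a cAMP response element at -50 and a TATA box at -18, counted from the gene start to the first base of the match. The DIO3 region holds CCAAT boxes on the reverse strand at -125 and on the forward strand at -49, and a TATA box at -32. Among 27305 RefSeq promoters of this length, 12.0% hold the TATA box, 35.7% the CCAAT box and 1.98% the cAMP response element. The MEG3 region has 19 CpG sites, the DIO3 region 28 and the DIO3OS region 46, against a median of 14 over all promoters. RTL1 has 6 CpG sites and a CCAAT match on the reverse strand. The MEG3 row of the tables is 81.6 kb long and the RefSeq gene 34.9 kb, so the bounds of the row are not those of the RefSeq gene. No promoters of DLK1 and MEG8 are printed. A match to a motif is a description of letters and does not show a binding site.

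Genes that act with the members were described by 5 lists. The Notch pathway, in which DLK1 is a noncanonical ligand, had 12 tested genes at day 3.5, and the authors' deposited table called 1 of them. HEY1, a transcriptional repressor induced by Notch and BMP signals, was called higher on 400 Pa. It was at 23.5 FPKM there against 3.08 FPKM on 60 kPa (change 2.59). The implied SE of 0.78 belongs to the authors' ratio without pseudocount (statistic -3.74). HES1, a repressor induced by Notch, was at 27.0 and 30.0 FPKM, and RBPJ, its DNA-binding partner in the pathway, at 35.0 and 38.7 FPKM, and the authors' deposited table called neither. The median change of the list was -0.14, with 4 genes above 0 and 8 below, beside 0.02 for all tested rows.

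Of 16 tested genes of thyroid hormone action and selenoprotein synthesis, the processes DIO3 belongs to, the authors' deposited table called none at day 3.5, and the median change was 0.16. SECISBP2, which binds the RNA element needed to insert selenocysteine, was at 33.1 FPKM on 400 Pa and 42.7 FPKM on 60 kPa. NCOR1, a corepressor used by thyroid hormone receptors, was at 35.3 and 33.0 FPKM. Of 14 tested genes of imprint maintenance and Polycomb repression, the authors' deposited table called none, and the median change was -0.02. TRIM28, a corepressor that protects imprints, was at 639 and 632 FPKM, and the DNA methyltransferase gene DNMT3B at 78.3 and 116 FPKM. The 5 tested retrotransposon-derived relatives of RTL1 had a median change of 0.05, without any call in the authors' deposited table, with PEG10 at 68.7 and 67.1 FPKM and FAM127A at 19.4 and 15.5 FPKM.

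Of 13 tested imprinted genes elsewhere in the genome, the authors' deposited table called 1 at day 3.5. H19, a maternally expressed noncoding RNA on another chromosome, was called higher on 400 Pa. It was at 58.0 FPKM there against 6.47 FPKM on 60 kPa (change 2.98). Its implied SE of 0.84 belongs to the authors' ratio without pseudocount (statistic -3.77). H19 thus lay on the side of DIO3, and opposite to the maternally expressed MEG3. MEST was at 309 and 340 FPKM and GNAS at 225 and 236 FPKM, neither called by the authors' deposited table, and the median change of the list was -0.07. At day 0 the authors' deposited table called no gene of the 5 lists, with medians from -0.15 to 0.10.

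Cell type markers differed between the gels at day 3.5, and their part in the values of the cluster was not tested. The summed FPKM of 5 neuroectoderm markers was 95.8 on 400 Pa and 237 on 60 kPa, and the authors' deposited table called 3 of the 4 tested (OTX2, HESX1 and LHX5) with the higher value on 60 kPa, while SOX1 was at 0.0101 and 0.0267 FPKM. PAX6, the other tested marker, was at 17.2 FPKM on 400 Pa and 19.6 FPKM on 60 kPa at day 3.5 and was not called. At day 0 the sums of the same markers were 155 and 89.9, with no call in the authors' deposited table. The sums of both days were mostly OTX2, at 136 FPKM on 400 Pa and 82.2 FPKM on 60 kPa at day 0. At day 3.5 OTX2 was at 69.3 and 152 FPKM. At day 3.5 the higher gel in the neuroectoderm sums was that of DLK1, as it was for the pluripotency and endoderm sums given below. DLK1 was not called at day 0, so no side is read from it there. The summed FPKM of 5 amnion and trophoblast markers at day 3.5 was 148 on 400 Pa and 29.3 on 60 kPa, and the authors' deposited table called 3 of 5 (VTCN1, CDX2 and KRT7) with the higher value on 400 Pa. The mesoderm markers summed to 116 and 45.8, and of 7 tested the authors' deposited table called HAND1, with the higher value on 400 Pa. At day 3.5 both sums were higher on the gel where DIO3 was higher. At day 0 the amnion and trophoblast sums were 14.0 on 400 Pa and 7.18 on 60 kPa, with TFAP2A called on the soft side in the authors' deposited table (q = 0.0390), and the mesoderm sums were 10.4 and 14.9. The day 0 mesoderm sums were mostly KDR, at 9.07 FPKM on 400 Pa and 13.5 FPKM on 60 kPa, against 23.0 and 14.8 FPKM at day 3.5. DIO3 at day 0 was at only 0.0244 and 0.0878 FPKM and was not tested by the authors, so no side is read from it. At day 3.5 pluripotency markers summed to 463 and 743 and endoderm markers to 23.9 and 31.6. The authors' deposited table called none of the 7 and 2 tested genes. At day 0 the pluripotency sums were 1485 on 400 Pa and 1636 on 60 kPa, and the endoderm sums 2.12 and 1.99.

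For each member that reached 1 FPKM, the 3 single-gene rows with the most similar profile were taken, by the Euclidean distance between log2(FPKM + 1) values over the 4 groups, each centred on its own mean. The search covered 19364 rows, and 19365 for the MEG8 row. With 4 values a profile, this is a description. For DLK1 these rows were OSBPL11, LIX1 and PAX6, at distances of 1.10, 1.32 and 1.53. At day 3.5 OSBPL11 was at 318 FPKM on 400 Pa and 814 FPKM on 60 kPa, and LIX1 at 27.7 and 29.8 FPKM. PAX6, a transcription factor of the eye and neural tube, is also among the neuroectoderm markers. It was at 17.2 FPKM on 400 Pa and 19.6 FPKM on 60 kPa at day 3.5, against 0.597 and 0.167 at day 0. The authors' deposited table called none of these 3 rows at day 3.5. No profile came nearer to DLK1 than 1.10, whereas the other members had neighbours within 0.35. The distance is not scaled to the size of a profile, and DLK1 had the largest changes from day 0 to day 3.5. The contrast is thus not read as a trait of DLK1.

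For MEG3 the nearest rows were LINGO2 (0.26), ATP6V0A1 (0.31) and IL1RAPL1 (0.31). IL1RAPL1, a synaptic membrane protein, was at 0.949 FPKM on 400 Pa and 4.58 FPKM on 60 kPa at day 3.5 with q = 0.325 in the authors' deposited table. Rows near the MEG8 row were TRIM16L (0.29) and VWF (0.34). VWF, the clotting protein of endothelial cells and platelets, was at 0.873 and 6.12 FPKM at day 3.5, with q = 0.00783 in the authors' deposited table. DIO3 had CTB-158E9.1 (0.15), SLC40A1 (0.20) and TRIM55 (0.22). SLC40A1, the iron exporter ferroportin, was at 11.8 and 1.92 FPKM at day 3.5 and was called in the authors' deposited table. Among the members themselves, MEG3 and the MEG8 row lay 0.78 apart, and every other pair lay between 2.99 and 3.84 apart.

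**Figure D4:**
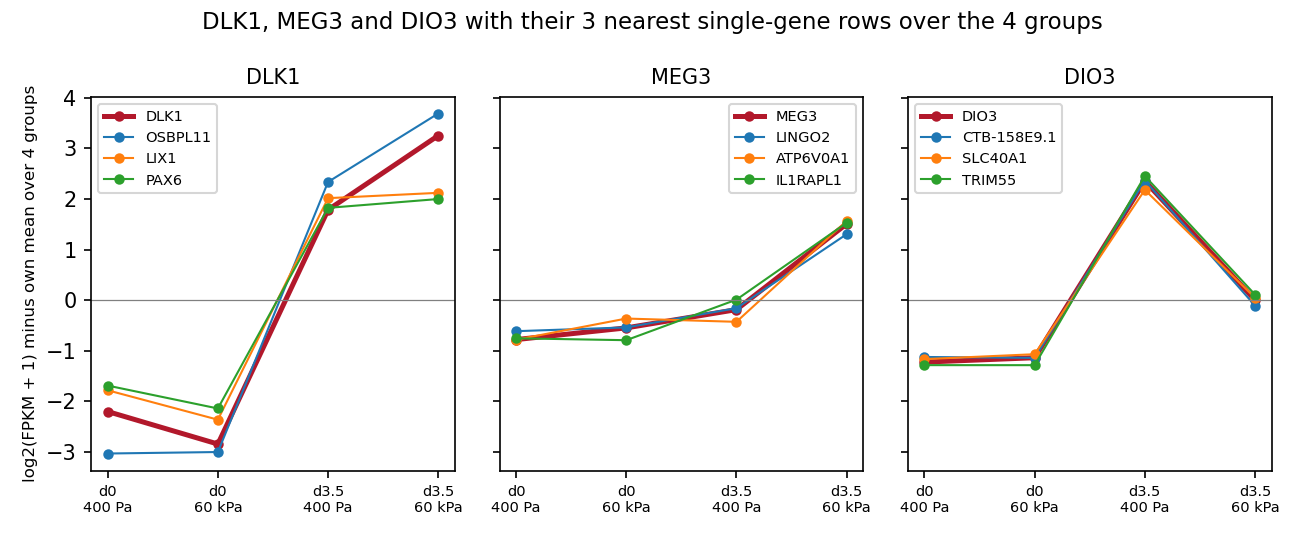
log2(FPKM + 1) minus its own mean over the 4 groups (y axis) in each group (x axis; d0 is day 0, d3.5 is day 3.5) for DLK1, MEG3 and DIO3 (thick red) and the 3 nearest single-gene rows of each (thin lines). MEG3 is highest on 60 kPa at day 3.5, DIO3 is highest on 400 Pa at day 3.5, and DLK1 is high on both gels at day 3.5.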

How the data were processed

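RNA of 8 libraries in 4 groups of 2 was sequenced. Whether libraries of a group were separate cultures is not labelled, so p-values reflect no more than the spread of these libraries, possibly a technical one. Per the submitters' processing notes, the authors used Cufflinks and build hg19. For versions, aligner, annotation and strand setting, nothing is given in the sources used here.

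Each day has 1 deposited table with 1 FPKM per group. Beside it stand the authors' log2 ratio (60 kPa over 400 Pa), their test statistic, which is a score, and their p-value and q-value. Values per library were not analysed here, so the planned test over libraries gave way to the authors' comparison, at q below 0.05 and FPKM of at least 1 in a group. A Benjamini-Hochberg adjustment over all rows the authors tested, 19486 at day 0 and 20670 at day 3.5, returned the deposited q-values. Changes use a pseudocount of 1. The implied SE is the ratio divided by the statistic, without pseudocount. It takes the statistic as the ratio over its SE, which the sources used here do not state. Starts in the tables count from 0 (end minus start equals a GENCODE release 29 transcript length in 1088 rows, and plus 1 in 14) and are printed from 1.

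The members and lists were chosen with earlier results of these data known. Named were the 5 members, rows between DLK1 and DIO3 and the nearest 5 loci on each side where FPKM reached 1, each list's called genes and its 2 highest, and the 3 rows nearest in profile to each member, of which 1 is not reported here. The few low rows and list examples outside this rule were chosen after their values were seen. Of 114 list genes, 104 had a row. RefSeq (GRCh38.p14) held promoters of 3 members. Overlapping and antisense genes cannot be told apart. The call rule, the adjustment and the profile search were checked with planted answers, and the other steps were not. Alternatives were pseudocounts of 0.1 and 0.5, other thresholds, FPKM minimums, a 2-fold minimum, a new adjustment and centring. Tools were Python 3.11.15 with pandas 2.3.3, scipy 1.17.1, numpy 2.4.6 and matplotlib 3.10.9.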

Additional observations from a re-analysis of the deposited data

How the results depend on the processing

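At q below 0.01 in place of 0.05, the authors' deposited tables called 2 members at day 3.5, DLK1 and DIO3, and neither MEG3 nor the MEG8 row. At that threshold they called 129 rows in all at day 3.5 and 0 at day 0, where 324 rows had an unadjusted p below 0.05. The other thresholds, FPKM minimums, fold minimum and new adjustment left 3 or 4 members called at day 3.5. Pseudocounts of 0.1 and 0.5 cannot turn the direction of a change between gels, so they are no check of it. Centring, which removed a median of 0.02 on each day, turned the direction of no member. The size depends on the pseudocount: at day 3.5 the members ran from -1.86 to 2.35 with 1 and from -2.66 to 2.92 with 0.1. The values from day 0 to day 3.5 ran from 0.59 to 6.10 with 1 and from 2.32 to 7.33 with 0.1. No paired analysis was possible because the tables hold 1 value per group, and for the same reason no library was left out in turn. The precision of members under 1 FPKM cannot be given without counts.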
